A study of Mus musculus and Homo sapiens with 9 samples.

Results

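The genes described here are 6 p53 target genes of DNA repair in the mouse: Xpc, Ddb2 and Ercc5 of nucleotide excision repair, Polk and Polh of translesion synthesis, and Rrm2b of nucleotide supply. They were chosen by name, from 21887 protein-coding genes on placed chromosomes. Chromatin immunoprecipitation and sequencing (ChIP-seq) located 2 proteins in B16 cells, a mouse melanoma line grown in culture. These were thymine DNA glycosylase (TDG), which starts base excision repair by cleaving off mispaired thymine and oxidation products of methylcytosine, and p53, a transcription factor activated by DNA damage. The series holds 9 samples, each the only library of its group, and the peak lists of 2 of them were used. Both lists came from B16 cells with an HA tag knocked in at Tdg. An HA antibody was used for 1 library, whose peaks are called TDG peaks below, and a p53 antibody for the other. The labels name no treatment for these cells and do not say whether the knock-in line was 1 clone. Input, IgG, the HA antibody in wild-type B16 cells, the p53 antibody in Trp53 KO cells and 3 samples of the human H1299 line were not analysed here. Dependence of the peaks on the tag or on p53 was therefore not tested.

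Nucleotide excision repair cuts out bulky lesions such as those left by ultraviolet light. XPC binds the distorted DNA, DDB2 helps it find pyrimidine dimers, and XPG, the product of Ercc5, cuts the damaged strand on the 3′ side. Polymerase eta, the product of Polh, copies past dimers, and polymerase kappa, the product of Polk, copies past bulky guanine adducts. Rrm2b encodes p53R2, a small subunit of ribonucleotide reductase that supplies deoxynucleotides outside S phase. These genes are grouped as p53 targets because p53 was reported to raise the expression of most of them after DNA damage, largely in human cells.

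A TDG peak lay at 5 of the 6 genes and no p53 peak lay at any of them. TDG was counted where the highest point of a peak, its summit, lay inside the gene or within 1 kb of either end. By this rule TDG was called at 14.8% of all protein-coding genes. With gene ends alone, leaving out the rest of the gene body, the same 5 genes were called, against 12.3% of all. A p53 peak was counted where its summit lay inside the gene or had an end of this gene as its nearest protein-coding gene end. The p53 rule called 0.512% of all protein-coding genes, and both rules together called 0.142%. Each of the 5 genes had a single TDG peak, and Ddb2 had none.

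Of the 6 genes, Ercc5, Polk and Polh matched the RefSeq promoter table of GRCm38.p6, the assembly of mm10. The 3 stretches below are shown because they are the sequence before a start that a TDG peak touched. Each is written 5′ to 3′ on the strand of the gene and ends at the base before the start. The stretch of Polk stops at the next gene, Cert1, and that of Polh stops at Xpo5, so both are the whole gap between a pair of divergent genes. Capitals mark CpG dinucleotides, the context in which TDG is known to act on thymine and oxidised methylcytosine.
Ercc5 (chr1:44147494-44147743, plus strand): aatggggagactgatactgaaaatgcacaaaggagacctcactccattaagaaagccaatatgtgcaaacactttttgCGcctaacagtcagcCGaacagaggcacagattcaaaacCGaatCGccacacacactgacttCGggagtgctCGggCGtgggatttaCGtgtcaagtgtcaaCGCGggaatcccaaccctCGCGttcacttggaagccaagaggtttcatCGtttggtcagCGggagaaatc
Polk (chr13:96542580-96542708, minus strand): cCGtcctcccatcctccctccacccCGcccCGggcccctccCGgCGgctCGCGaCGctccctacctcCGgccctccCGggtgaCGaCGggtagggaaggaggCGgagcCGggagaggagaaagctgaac
Polh (chr17:46202642-46202810, minus strand): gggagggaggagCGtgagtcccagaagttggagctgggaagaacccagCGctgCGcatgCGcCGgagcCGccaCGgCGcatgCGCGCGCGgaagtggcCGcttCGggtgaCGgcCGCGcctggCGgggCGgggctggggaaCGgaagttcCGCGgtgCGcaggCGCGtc
The TDG peak covered all 129 bases of the Polk stretch and all 169 bases of the Polh stretch. Of the 250 bases before the Ercc5 start it covered only the last 20. The Polk summit fell at base 62 of its stretch, while the summits at Ercc5 and Polh lay beyond the start, inside the gene.

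Xpc (chromosome 6, 91489305 to 91515888) had a TDG peak at its upper-coordinate end. The peak (91515573 to 91515899) was 327 bases wide and its summit lay 90 bases inside the gene. Across a gap of 146 bases lies Lsm3, an RNA-processing gene transcribed away from Xpc, and the summit was within 1 kb of its end too. The fold enrichment, the authors' ratio of the summit to the local background, was 4.48 with a −log10 q of 6.72.

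Ercc5 (chromosome 1, 44146948 to 44181260) had the highest fold enrichment of the 5 genes, 6.63 with a −log10 q of 10.5. Its peak (44147724 to 44148244) was 521 bases wide. The summit lay 968 bases inside the lower-coordinate end of the annotated gene, but 172 bases after the start given in the promoter table. Among the 5 summits it was the farthest from a gene end and the only one near the 1 kb limit, though it counted in any case because it was inside the gene. No other protein-coding gene end lay within 1 kb of it.

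Ddb2 (chromosome 2, 91211545 to 91237132) was the gene without a TDG peak. The nearest TDG summit lay 28021 bases above it, in a peak (91264973 to 91265287, 5.21-fold) beside Pacsin3 and Arfgap2. Like the upper end of Xpc, that of Ddb2 faces another gene at short range, the noncoding A330069E16Rik, 13 bases away, and the TDG list had no peak there. The lowest summit count recovered from the TDG list was 15 reads. It is not a fixed limit, because the calling threshold was not given, and weaker signal at Ddb2 could have gone unlisted.

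The translesion polymerase genes both carried TDG at a start shared with a divergent neighbour. At Polk (chromosome 13, 96480687 to 96542579) the peak (96542459 to 96542784) was 326 bases wide, 5.99-fold, with a −log10 q of 8.19. Its summit lay 68 bases outside the gene, in the gap of 129 bases before Cert1, which encodes a ceramide transporter. A second, inner start of Polk at 96519187 had no TDG peak. At Polh (chromosome 17, 46171355 to 46202641) the peak (46202535 to 46202957) was 423 bases wide, 5.47-fold, with a −log10 q of 6.60. The summit lay 54 bases inside Polh, and the peak reached across the gap of 169 bases into Xpo5, the gene of the exporter of microRNA precursors.

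Rrm2b (chromosome 15, 37923952 to 37961119) had the widest of these peaks, 758 bases (37960632 to 37961389). It was 4.63-fold with a −log10 q of 7.39, and its summit lay 58 bases outside the upper-coordinate end. No other protein-coding gene end lay within 1 kb, but the noncoding gene Gm49085 begins 38 bases away and held the summit. For Xpc and Rrm2b the reference tables used here give no strand, so the end was not named a start.

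**Figure D1:**
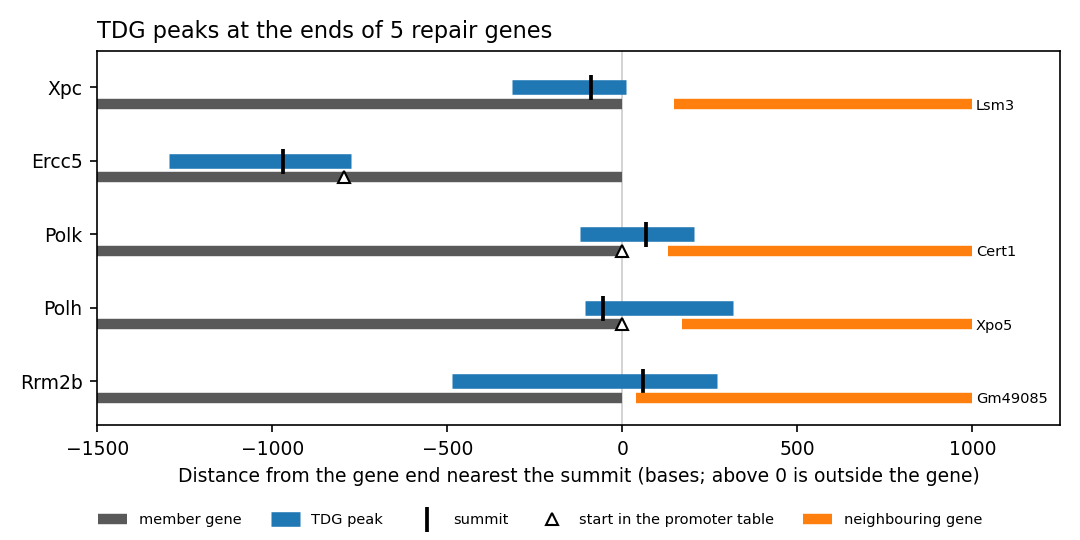
Position of the TDG peak (blue bar, summit as a black tick) at each of the 5 genes, in bases from the gene end nearest the summit, with the gene in grey, the adjacent gene in orange where it begins within 1 kb, and the start of the promoter table as a triangle. Summits at Xpc, Polk, Polh and Rrm2b lie 54 to 90 bases from the end, and that of Ercc5 lies 968 bases inside it.

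At 3 of the 5 genes, Xpc, Polk and Polh, the summit was within 1 kb of the ends of both the gene and a protein-coding neighbour. Over the whole list this held for 448 of 2290 TDG peaks at gene ends (19.6%). These were also the 3 of the 6 genes with an end within 1 kb of another protein-coding gene end. TDG was called at 25.2% of the 5426 protein-coding genes with such an end, against 11.4% of the 16461 without one. A peak at a shared end counts for both genes, so its assignment to the repair gene cannot be told apart from assignment to the neighbour.

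Set in the TDG list of 3410 peaks, the 5 peaks were of ordinary strength. Their median fold enrichment was 5.47, against 5.74 for the list, with list quartiles of 4.95 and 6.77. Ercc5 stood at percentile 71.8 of the list and Polk at 55.6. Polh, at percentile 39.8, lay below the median. Rrm2b and Xpc stood low, at percentiles 13.2 and 12.1. For scale, the tagged Tdg gene held the highest TDG peak of all, at 28.9-fold. That is the edited locus, and whether the knock-in itself contributed to its peak was not tested. In width the 5 peaks ran from 326 to 758 bases, around a list median of 420.

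The reads behind each summit were recovered from the authors' fold enrichment and p, and they did not follow the order of the fold enrichments. Rrm2b had 29 reads at its summit (exact Poisson 95% interval 19.4 to 41.6) and Xpc had 28 (18.6 to 40.5). Ercc5 had 25 reads (16.2 to 36.9). Polk had 22 (13.8 to 33.3) and Polh had 20 (12.2 to 30.9). All 5 intervals overlapped, so the genes could not be ordered by TDG signal at this depth. Such intervals cover counting error only.

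The 2 genes with the most reads had the lowest fold enrichment and the highest local background, by which the fold enrichment is divided. The read counts above are unscaled, whereas the background is on the scale of the fold enrichment, where 1 TDG read counts as 0.924. It was 5 reads at Xpc and at Rrm2b, 2.64 at Ercc5, and 2.56, the genome-wide value, at Polk and Polh. Over the genome-wide background, a calculation chosen after the data had been seen, Rrm2b came to 7.81-fold and Xpc to 7.55-fold. Ercc5 then came to 6.77-fold, while Polk and Polh kept 5.99-fold and 5.47-fold. On that scale Rrm2b and Xpc moved to percentiles 79.4 and 75.6, while Ercc5 moved to 58.9, Polk to 37.2, below the list median, and Polh to 21.3. What raised the background at Xpc and Rrm2b was not tested.

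**Figure D2:**
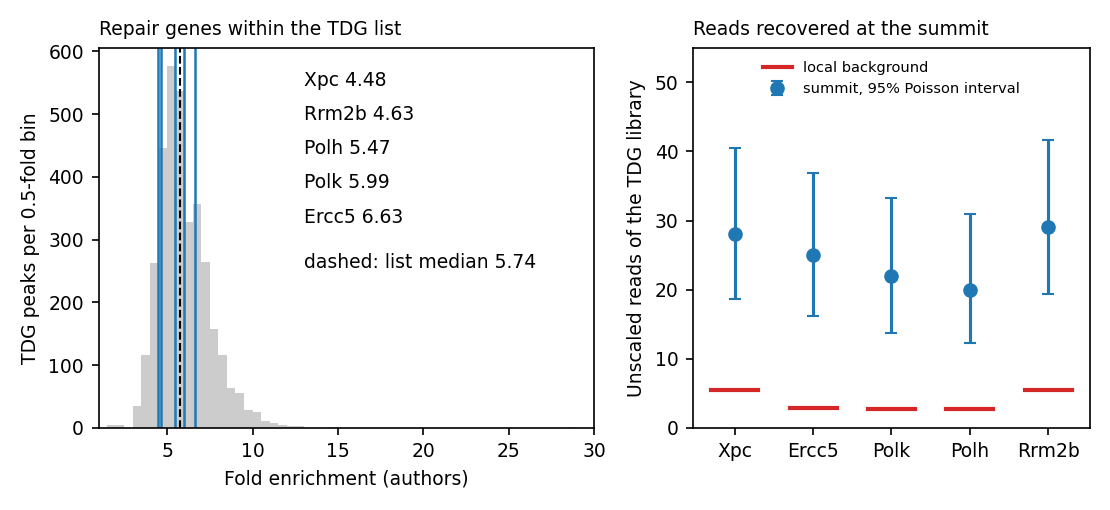
Left, the authors' fold enrichment of all 3410 TDG peaks in bins of 0.5-fold, with the 5 repair gene peaks as blue lines and the list median of 5.74 dashed. Right, reads at each summit with the exact Poisson 95% interval and the local background in red, divided by the read scale of 0.924 to match. The 5 intervals overlap, and the background is highest at Xpc and Rrm2b.

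The share of 5 of 6 was read against several backgrounds, as a description of genes chosen with earlier results known. On the 6 chromosomes of these genes, TDG was called at 18.8% of protein-coding genes. The share by chromosome was 30.9% on chromosome 6 (Xpc), 27.2% on 15 (Rrm2b), 19.1% on 17 (Polh), 17.5% on 1 (Ercc5), 12.5% on 2 (Ddb2) and 9.77% on 13 (Polk). Chromosomes 6 and 15 were thus rich in TDG peaks as a whole, whereas Polk was called on the poorest of the 6.

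Promoter sequence set a higher background. Promoter windows of 300 bases, 250 before the start and 50 from it on, were called CpG-rich at a GC content of at least 50% and a ratio of observed to expected CpG of at least 0.6. TDG was called at 26.5% of 8452 protein-coding genes with a CpG-rich window, against 5.37% of the 9040 genes with no such window. Xpc and Rrm2b had no window in the promoter table. At the other called genes, Ercc5, Polk and Polh, the windows at the called starts were all CpG-rich. So were 86.6% of all windows with a TDG peak and 45.1% of all windows, so this was not particular to these genes. Polh had 42 CpG dinucleotides in its window, Polk had 25 and Ercc5 had 21. Windows under a TDG peak had a median of 25 CpG (quartiles 19 and 31, 2475 windows), and the other 18788 windows had a median of 10. The inner Polk start, with no peak, had 4.

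**Figure D3:**
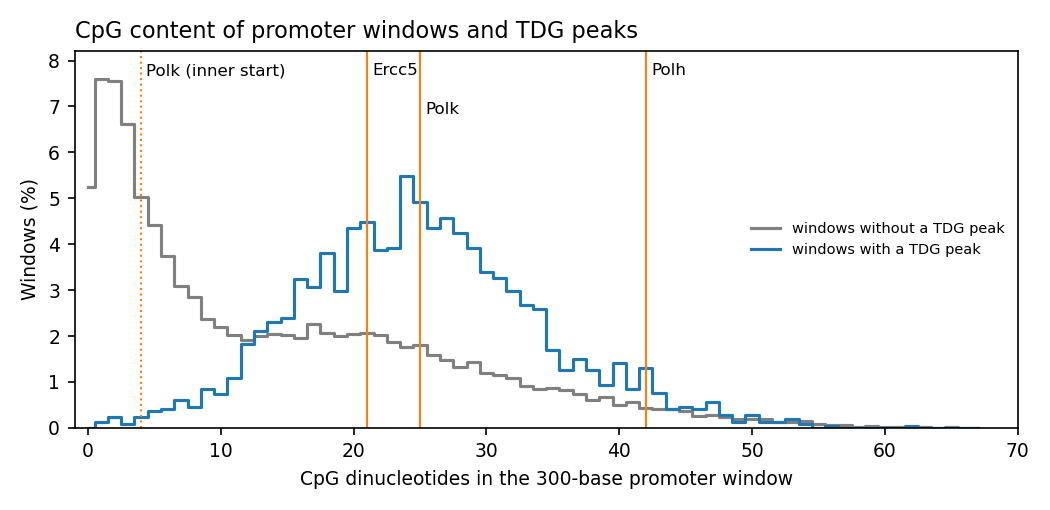
CpG dinucleotides per 300-base promoter window for windows of protein-coding genes with a TDG peak (blue, 2475 windows) and without one (grey, 18788), each as percent of its own class. Orange lines mark Ercc5 (21), Polk (25) and Polh (42), and the dotted line the inner Polk start (4), which had no peak.

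The p53 list was sparse, with 126 peaks that called 0.512% of all protein-coding genes, and its nearest summits lay far from all 6 genes. The same distances over all protein-coding genes are not given here, so those below are not shown to be particular to the 6. The closest lay 6322834 bases from Polh (1.51-fold), and the next 7169875 bases from Polk (12.6-fold) and 7429660 bases from Ddb2 (1.68-fold). The p53 list had a median of 13.5-fold and a lowest value of 1.45-fold, so the peaks nearest Polh and Ddb2 were weak ones. Distances were 9905629 bases for Rrm2b, 21524008 for Xpc and 34507824 for Ercc5. No TDG peak at these genes therefore overlapped a p53 peak. Chromosomes of the 6 genes held between 3 and 10 p53 peaks each, among 126 in the list. In the same library Cdkn1a, the gene of the cell cycle inhibitor p21, had 3 p53 peaks of up to 32.5-fold, and Mdm2, the gene of the ligase that degrades p53, had 1 of 26.0-fold. The lowest count recovered at a p53 summit was 23 reads. It is not a fixed limit, because the calling threshold was not given, and weaker p53 signal at the repair genes could have gone unlisted.

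**Figure D4:**
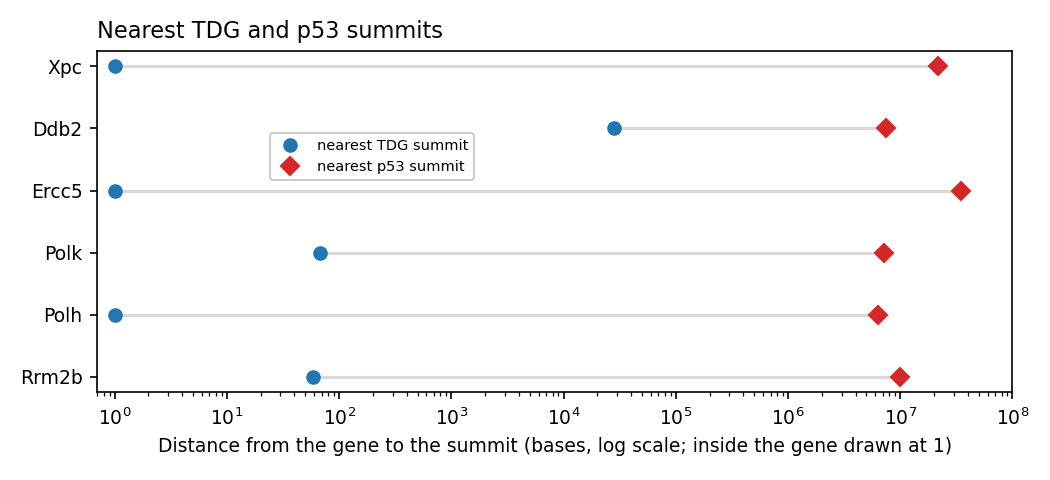
Distance in bases, on a log axis, from each of the 6 genes to its nearest TDG summit (blue) and nearest p53 summit (red), with summits inside the gene drawn at 1. TDG summits lie inside or within 68 bases of the gene except at Ddb2 (28021 bases), and p53 summits lie 6322834 to 34507824 bases away. Distances over all genes are not shown, and the p53 list held 126 peaks.

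The promoter windows of Ercc5, Polk and Polh held no p53 full site. The search used the p53 core motif, a degenerate decamer that reads the same on both strands, and a full site was a pair of core motifs 0 to 13 bases apart. A core motif was found only in the window of the inner Polk start, 231 bases before it: gaactagcct. Core motifs occurred in 7.37% and full sites in 0.047% of 21263 windows of protein-coding genes. The GC box (GGGCGG, either strand), a site of Sp1-type factors, occurred once each in the windows of Polk and Polh, and in 46.2% of all windows. The CCAAT box (CCAAT, either strand) occurred once at Ercc5 and in 38.2% of windows. The core of the cAMP response element (TGACG, either strand), bound by CREB-type factors, occurred once at Ercc5, once at Polk and at 2 places at Polh, against 23.6% of windows with any. These matches are letters in a window. Introns and the promoters of Xpc, Ddb2 and Rrm2b were not searched.

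TDG peaks also lay at other genes of the same pathways. In a list of 37 nucleotide excision repair genes, which includes the repair synthesis factors, 11 had a TDG peak (29.7%). Outside the 6 genes it was 9 of 34 (26.5%), beside 26.5% of genes with a CpG-rich window. The highest were Rad23b, the gene of a partner of XPC, and Uvssa, which acts in transcription-coupled repair, each at 7.81-fold. Rfc4 of the clamp loader (6.68-fold) and the single-strand binding genes Rpa3 (6.67-fold) and Rpa1 (6.48-fold) also had one, as did Ercc4, the gene of the XPF nuclease (6.51-fold), and the replicative polymerase gene Pold1 (6.25-fold). Both nuclease genes whose products cut on either side of the lesion, Ercc4 and Ercc5, thus had a TDG peak. No gene of the list had a p53 peak, beside 0.512% of all protein-coding genes, a share at which most lists of this size would have none.

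Translesion synthesis genes had a TDG peak in 6 of 16 cases (37.5%), and in 4 of 14 (28.6%) outside Polk and Polh, against 14.8% of all protein-coding genes and 26.5% of those with a CpG-rich window. Those 4 were Usp1, which removes ubiquitin from PCNA (5.40-fold), Pold2 (5.28-fold), Mad2l2 of polymerase zeta (4.70-fold) and Rad18, the ligase that marks PCNA (4.45-fold). Polk (5.99-fold) and Polh (5.47-fold) had the highest fold enrichments of this list, but counting error leaves that order unresolved. Their 95% Poisson intervals, 3.86 to 8.93 and 3.45 to 8.30, both include the values of the other 4. The 16 genes included no p53 peak, beside 0.512% of all protein-coding genes.

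Nucleotide supply genes had a TDG peak in 6 of 16 cases (37.5%), and in 5 of 15 (33.3%) outside Rrm2b, against the same 14.8% and 26.5%. They reached higher fold enrichments than the 6 repair genes: Nme2, a nucleoside diphosphate kinase gene, had 10.0-fold and Dguok of mitochondrial salvage 9.41-fold. Tk1, the thymidine kinase gene, had 6.25-fold. Rrm2, the cell cycle counterpart of Rrm2b in ribonucleotide reductase, had 4.18-fold, near the 4.63-fold of Rrm2b. The only p53 peak assigned over the 3 lists was in Tyms, the thymidylate synthase gene (12.1-fold, 7776 bases from a gene end), which had no TDG peak. The p53 rule called 0.512% of all protein-coding genes. Within 10 kb, a 38.0-fold p53 summit also lay 9747 bases from Rrm1, the large subunit gene of ribonucleotide reductase. It lay outside Rrm1 and nearer to the end of another protein-coding gene, so the assignment rule did not give it to Rrm1. With only p53 peaks of at least the median fold, the assignment rule called no gene of the lists, beside 0.274% of all protein-coding genes.

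**Figure D5:**
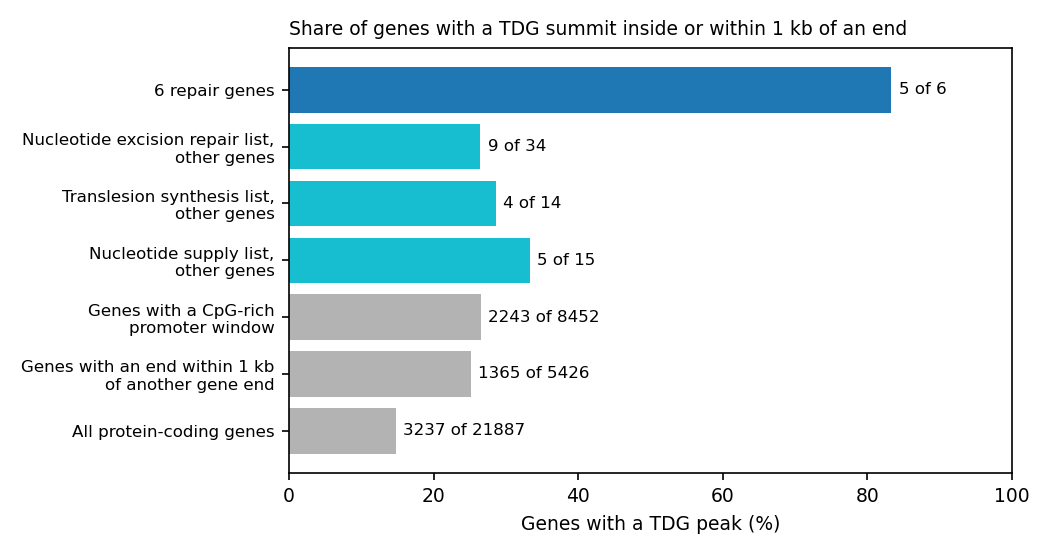
Percent of genes with a TDG summit inside the gene or within 1 kb of an end, with the count beside each bar: the 6 repair genes, the other genes of 3 pathway lists, and 3 backgrounds. The 6 repair genes stand at 5 of 6, the other bars between 14.8% and 33.3%.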

How the data were processed

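ChIP-seq used cells fixed with 1% formaldehyde for 10 min and DNA of about 300 bp, per the labels' protocols. Per the submitters' processing notes, the build was mm10 and the tools were Bowtie2, MACS2, Picard, Trim Galore, ChIPseeker and deepTools, with no version or role stated. The authors deposited narrowPeak lists. The deposited fold enrichment is a ratio of the summit to the local background, with 1 read added to both as MACS2 does. The deposited −log10 p and −log10 q describe the summit. The deposited score was the −log10 q times 10, rounded down, for all 3410 TDG and 126 p53 peaks. The control library, calling threshold and library totals were not given in the sources used here.

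Peaks were assigned to genes of the RefSeq table for GRCm38.p6 with Python 3.11.15, pandas 2.3.3 and scipy 1.17.1. Summit reads were recovered by finding the local background at which the deposited fold and Poisson p give the same summit. The read scale, 0.924 for TDG and 0.792 for p53, was chosen to make the most counts at the genome-wide background whole. Only counts within 0.05 reads of a whole number were kept, which gave counts for 3409 TDG and 123 p53 peaks. Wholeness was thus a condition of the recovery and not a check of it. The assignment was tested on constructed cases and the recovery on simulated peaks. The simulated local backgrounds stayed below the 5 reads of Xpc and Rrm2b, so recovery at such backgrounds was not tested. With 1 library per group no test between conditions was possible.

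The 6 genes, the lists and the alternatives were chosen with earlier results of these data known. The text names the 6 genes, up to 8 genes with a TDG peak per list by fold enrichment, list genes with a p53 peak, neighbours, and Tdg, Cdkn1a and Mdm2 for scale; 1 list gene is not reported by name here. The CpG-rich, paired-end and same-chromosome backgrounds were added after the data were seen. Strand was given only in the promoter table. The RefSeq tables held no genome sequence, so peaks outside promoter windows were not searched.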

Additional observations from a re-analysis of the deposited data

How the results depend on the processing

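The count of 5 genes with a TDG peak was the same with a 3 kb window, with gene ends alone, with a −log10 q of at least 5 and with any overlap of the peak. All 5 summits lay within 968 bases of a gene end, with a −log10 q of at least 6.60. These settings could therefore remove none of them, nor add Ddb2, whose nearest TDG summit was 28021 bases away. Over all protein-coding genes the share was 15.8%, 12.3%, 13.2% and 14.9% in these settings. The count was 2, Ercc5 and Polk, with only peaks of at least the median fold of their list kept, beside 7.96% of all genes. Leaving out peaks near the end of another protein-coding gene also gave 2, Ercc5 and Rrm2b. No share over all genes is given for that last setting, so its count has no background. Of the 69 genes of the 3 lists, 23 had a TDG peak, 20 to 25 under the other settings, and 14 with at least the median fold, since fewer peaks were counted. No p53 peak and no shared peak appeared at the 6 genes under any of the p53 assignments and overlap settings run. None of these settings could have added one, since every p53 summit lay 6322834 bases or more from each of the 6 genes. Of the 69 list genes, only Tyms had a p53 peak, but 2 did with a 10 kb window, Tyms and Rrm1, and 0 with peaks of at least the median fold. Over all protein-coding genes the shares in these 3 settings were 0.512%, 0.489% and 0.274%. Such small counts do not set the lists apart from all genes. The median percentile of the 5 peaks was 39.8 by fold enrichment and by −log10 q, and 58.9 over the genome-wide background. No paired analysis was possible because each group had 1 library.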

Other observations

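TDG peaks also lay at genes next to the repair genes. Gtpbp2, the gene below Polh, had a 9.37-fold TDG peak, higher than any at the 6 genes. Bivm, the gene below Ercc5, had a 5.73-fold peak. Below Xpc a 5.82-fold peak had its summit outside Tmem43, the adjacent gene, with Chchd4 as the gene of the nearest end. Neither the lower neighbour of Ddb2, Nr1h3, nor that of Polk, Ankdd1b, had one.

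Across promoter windows of protein-coding genes, motifs differed in share between windows with and without a TDG peak, as a description with no test. The GC box (GGGCGG) was in 79.6% of windows with a TDG peak and 41.8% of the others, and the core of the cAMP response element (TGACG) in 37.8% and 21.7%. Both of these motifs contain a CpG. The CCAAT box, which contains none, was in 46.0% and 37.2%. The p53 core motif was in 6.46% of windows with a TDG peak and 7.49% of those without, while 9 of the 18 windows under a p53 peak held one.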
